A study of Mus musculus with 8 samples.

Results

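The regions described here are 992 peaks of the chromatin remodeler CHD4 in proliferating otic progenitor cells, places where CHD4 and the acetyltransferase p300 were both listed in those cells while p300 was no longer listed after differentiation into neurons. They were chosen from the 4919 peaks of the proliferating CHD4 list, of which they are 20.2%. A CHD4 peak was taken when it shared at least 1 bp with a proliferating p300 peak, with no neuron p300 peak and with no proliferating peak of H3K4me3, the histone mark of active promoters. The calls of proliferating CHD4, p300 and H3K4me3 and of neuron p300 therefore chose the sites, and everything said of those calls below is a description. The neuron CHD4 and neuron H3K4me3 lists, the gene annotation and the base sequence took no part in the choice.

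The cells were mouse iMOPs, a wild-type line of immortalized otic progenitors, that is, of the cells that give rise to the sensory and neural parts of the inner ear. Neurons derived from iMOPs were kept with the CDK2 inhibitor K03861 at 1 µM, and proliferating iMOPs with bFGF at 20 ng/ml; no other treatment is labelled in either state. Binding was mapped by CUT&Tag, in which an antibody guides a transposase that cuts and tags the DNA beside the bound protein, with 500000 cells and 1 library for each antibody and state. All sites thus come from 1 cell line and 1 library per list, no value here has a replicate check, and the differentiation cannot be told apart from the change of medium and inhibitor.

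CHD4 is the ATPase of the NuRD complex, which joins nucleosome remodeling to histone deacetylation and is best known for holding genes down, although it is found at active enhancers and promoters too. p300 acetylates histones, H3K27 among them, and is widely used to find active enhancers. In the developing inner ear, progenitors leave the cell cycle and take on the fate of neurons or of sensory and supporting cells. A site with CHD4 and p300 away from H3K4me3 has the marks commonly used to pick out a candidate enhancer, a use that the lists alone do not test.

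The sites were not all distant from genes. Some covered the start of a gene. In a small number of these the highest CHD4 and p300 signal both fell within 200 bp of the start of a protein-coding gene, and among those most were replication-dependent histone genes on chromosome 13. The upstream sequence of 5 of them is shown for that reason. The sequences are those of RefSeq for GRCm38.p6, 5′ to 3′ in the direction of transcription, and end at the base before the transcript start. Capitals mark TATAAA and CCAAT on either strand, so that a match on the other strand reads TTTATA or ATTGG. CHD4 was listed again in neurons over the first 3 sites (H2ac15, H3c2 and Dact3), and was not listed in neurons over the last 2 (H1f3 and H4c4).
H2ac15, chr13:21753913-21754075, minus strand: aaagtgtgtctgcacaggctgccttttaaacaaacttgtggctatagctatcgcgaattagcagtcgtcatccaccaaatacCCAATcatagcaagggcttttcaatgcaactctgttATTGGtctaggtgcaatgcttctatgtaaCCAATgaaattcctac
H3c2, chr13:23752095-23752344, plus strand: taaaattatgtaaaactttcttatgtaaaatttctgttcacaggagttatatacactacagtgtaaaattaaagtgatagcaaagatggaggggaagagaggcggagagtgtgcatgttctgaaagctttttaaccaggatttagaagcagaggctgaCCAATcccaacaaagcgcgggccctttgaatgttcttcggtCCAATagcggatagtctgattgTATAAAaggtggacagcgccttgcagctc
Dact3, chr7:16875067-16875316, plus strand: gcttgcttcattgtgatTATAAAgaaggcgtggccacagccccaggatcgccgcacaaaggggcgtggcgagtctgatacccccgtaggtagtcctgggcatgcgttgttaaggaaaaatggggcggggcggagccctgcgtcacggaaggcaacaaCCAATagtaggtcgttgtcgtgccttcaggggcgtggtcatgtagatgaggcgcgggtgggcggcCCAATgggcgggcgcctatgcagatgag
H1f3, chr13:23554782-23555031, plus strand: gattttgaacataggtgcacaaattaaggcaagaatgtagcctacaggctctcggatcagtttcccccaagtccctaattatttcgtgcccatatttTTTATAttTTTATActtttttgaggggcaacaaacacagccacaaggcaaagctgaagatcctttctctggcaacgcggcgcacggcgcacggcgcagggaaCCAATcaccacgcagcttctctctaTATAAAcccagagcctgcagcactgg
H4c4, chr13:23581318-23581567, plus strand: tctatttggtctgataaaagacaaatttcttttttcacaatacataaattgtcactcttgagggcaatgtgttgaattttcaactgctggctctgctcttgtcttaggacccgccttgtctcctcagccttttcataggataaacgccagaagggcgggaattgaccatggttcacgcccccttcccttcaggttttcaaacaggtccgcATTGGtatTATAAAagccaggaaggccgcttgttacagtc

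H2ac15 (core histone H2A) had 3 CCAAT matches and no TATAAA, in the site with the highest CHD4 signal among those at histone genes, at percentile 97.1 of the proliferating CHD4 list. Percentiles here rank a peak's total signal within its own list, with 100 the strongest, since the scaling between libraries is not known. H3c2 (core histone H3) had 1 TATAAA and 2 CCAAT matches in a site at percentile 84.3. Dact3, which codes for an inhibitor of Wnt signaling, had 1 TATAAA and 2 CCAAT matches in a site at percentile 42.4. H1f3 (linker histone H1) had 3 TATAAA matches and 1 CCAAT at percentile 85.2, and H4c4 (core histone H4) had 1 of each at percentile 89.7. Site percentiles and TATAAA counts thus overlapped between the 3 shown windows with CHD4 in neurons and the 2 without, while CCAAT counts were 2 or 3 against 1. The H2ac15 window was shorter, at 163 bases. The qualifying windows that are not shown all had CHD4 in neurons. Of these, Gm1604b had 1 CCAAT, H2ac6 and H2bc3 had 3 each and H3c6 had 4, so CCAAT counts overlapped too. So few picked windows cannot show whether any of these values separates the groups.

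In all, 138 RefSeq windows of 300 bp around a transcript start overlapped one of the sites, belonging to 117 genes; 62 of the windows were of protein-coding genes and 76 of long non-coding RNAs. TATAAA lay in 22.5% of the 138 windows, against 13.6% of all windows, and CCAAT in 44.9%, against 37.4%. Without histone genes, TATAAA lay in 15.7% of 121 windows, against 13.5% of all such windows, and CCAAT in 38.8%, against 37.3%. Most of the TATAAA difference thus went with the histone genes. For CCAAT the shares by gene type lay on different sides of their backgrounds, over few windows and with no interval computed. Outside histone genes, 53.3% of 45 protein-coding windows in the sites held CCAAT, against 38.2% of all protein-coding windows. For long non-coding RNAs it was 30.3% of 76, against 36%. Over all gene types, CCAAT lay in 48.3% of 1377 windows under CHD4 and p300 peaks with H3K4me3 and no neuron p300. In sites keeping p300 it lay in 32.4% of 68 windows. Among the 17 windows of histone genes in the sites the shares were 70.6% for TATAAA and 88.2% for CCAAT, and among all 63 histone windows 54% and 82.5%, so histone genes hold these motifs in general. The E box CANNTG, read by basic helix-loop-helix factors, lay in 77.5% of the windows in the sites and 72.3% of all windows, and the AP-1 motif TGANTCA in 5.8% and 7.81%. The ratio of observed to expected CpG had a median of 0.35 in the windows in the sites, against 0.804 in windows under CHD4 and p300 peaks that carried H3K4me3 and had no neuron p300, and 0.384 in all windows. The median of the windows in the sites was thus close to that of all windows, but the gene types differed. Protein-coding windows in the sites, without histone genes, had a median of 0.419, against 0.567 in all protein-coding windows. Histone gene windows had 0.649, against 0.734, and long non-coding RNA windows 0.268, against 0.245. The rule left out peaks with H3K4me3, and its part in these values was not tested. The motif counts and CpG ratios describe letters in windows and name no bound factor.

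Of the 4919 proliferating CHD4 peaks, 2856 overlapped p300 and 1550 of these had no H3K4me3. Neuron p300 was missing at 992 of the 1550, or 64% (95% interval 61.6 to 66.4), and present at 558. Intervals throughout are for counting error only, because peaks are not replicates. The neuron p300 list held 965 peaks, against 3144 in the proliferating list, so a loss by this rule also reflects a shorter list; a shallower library, a stricter threshold, fewer cells with p300 at a site and less p300 per cell cannot be told apart. With the proliferating p300 list trimmed to its 965 strongest peaks, 227 sites lost p300 and 328 kept it, and the share lost was 40.9% (36.8 to 45.1). The sites lay over 997 distinct p300 peaks; 979 sites had 1 p300 peak, 12 had 2 and 1 had 3. On unplaced contigs lay 19 sites, 1 of them with CHD4 in neurons, and 973 on the numbered chromosomes, X and Y.

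The sites at the edge of the rule were few. The smallest p300 overlaps that still counted were 150 bp near Tle6, 250 bp near Tbx20 and 350 bp near Gphn, while CHD4 peaks near Aida and Mfng missed a p300 peak by 50 bp each. Neuron p300 came closest to a site inside Foxo6, 100 bp away, and then near Ptma and Echdc3, 400 bp away in both cases, near Dnajb12 at 600 bp and in Gse1 at 700 bp. The sites with the smallest overlap that counted as keeping p300, near Id2, Dll1 and Gm11232, shared 1200 bp with a neuron p300 peak. H3K4me3 came within 50 bp of the site near Sox8 and within 200 bp of those near Sox21 and Ski. In the whole set, 5 of the 973 sites on placed chromosomes had a neuron p300 peak within 1 kb and 17 had proliferating H3K4me3 within 1 kb, so near misses are a small share.

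CHD4 stayed at most of the sites from which p300 went missing. It was listed in neurons at 696 of the 992 (70.2%, 67.2 to 73), against 66.2% of all 4919 proliferating CHD4 peaks, and it was not listed at 296. Retention of CHD4 was thus close to that of the CHD4 list as a whole. At the 558 sites that kept p300, CHD4 was listed in neurons at 556 (99.6%), but this share is nearly fixed by the neuron lists, in which 962 of the 965 p300 peaks overlapped CHD4. Leaving out peaks with neuron p300, as was done for the sites, thus takes out peaks that nearly all had CHD4 in neurons. It took out 558 of the 1550 peaks with p300 and no H3K4me3, and other shares elsewhere. Gaps between groups therefore depend in part on that rule, and how far was not tested. Other groups of CHD4 peaks without neuron p300 were cut in the same way. The first is the 1190 peaks with neither p300 nor H3K4me3 in proliferating cells, of which 583 (49%, 46.1 to 51.9) had CHD4 in neurons. The next is the 1144 peaks with both p300 and H3K4me3, of which 881 (77%, 74.5 to 79.4) had it. The sites stood 21.2 percentage points above the peaks with neither mark (interval 17.1 to 25.1) and -6.85 points from those with H3K4me3 (-10.6 to -3.1).

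These gaps moved with signal strength, and they had different shapes. In the weakest quartile of the CHD4 list 27 of 75 sites (36%) had CHD4 in neurons, in the next 98 of 179 (54.7%), in the next 294 of 403 (73%) and in the strongest quartile 277 of 335 (82.7%). The peaks with neither mark had 39.7%, 51.5%, 65.1% and 65.8% in the same order of quartiles, the last over 38 peaks only. The difference, sites minus peaks with neither mark, was -3.66 points (-14.4 to 8.34) in the weakest quartile, 3.27 (-5.49 to 11.9) in the next, 7.88 (0.247 to 15.7) in the next and 16.9 (3.17 to 33.2) in the strongest. The gap was not detectable at these numbers in the 2 weaker quartiles, and in the strongest it was near the overall one. By quartile of width, narrowest first, it was 12.2 points (3.91 to 20.3), 21.7 (14 to 28.9), 18.3 (10.2 to 26) and 29.1 (20.6 to 37.2), so peaks of similar width kept a gap in every class. The groups differed in rank, with the sites at a median percentile of 66.2 and the peaks with neither mark at 28.1. Against the peaks with H3K4me3 the difference was -3.63 points (-16.2 to 9.75) in the weakest quartile and then -13.2 (-22 to -4.41), -16.7 (-22 to -11.3) and -10.6 (-15.7 to -5.49). Above the weakest quartile CHD4 was thus listed again less often at the sites than at equally ranked promoter-marked peaks without neuron p300. In those quartiles the rule had set apart the sites keeping p300, with CHD4 in neurons at 33 of 33, 111 of 111 and 407 of 409. These gaps therefore depend in part on the rule, and how far was not tested.

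**Figure D1:**
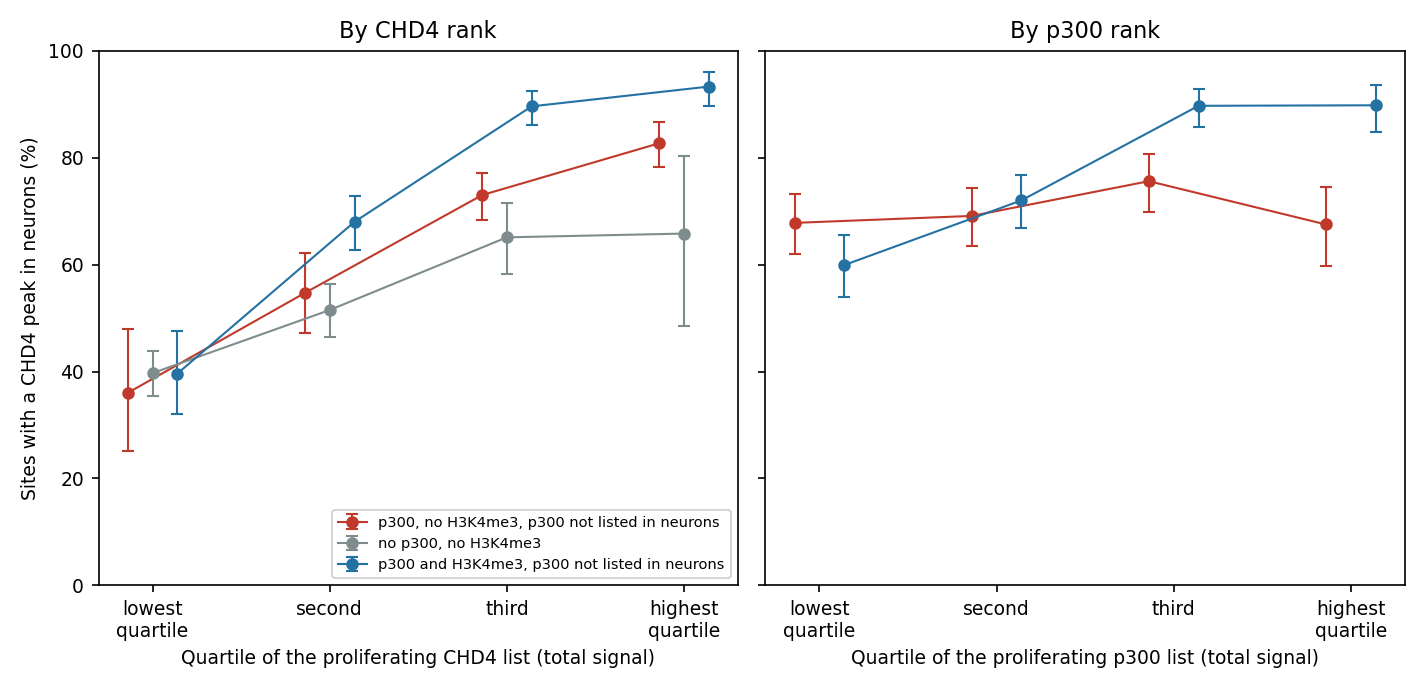
Share of CHD4 peaks listed again in neurons (y axis, %, bars are exact 95% intervals for counting error) by quartile of the proliferating CHD4 list (left panel) and of the proliferating p300 list (right panel), for the 992 sites (red), peaks with neither p300 nor H3K4me3 (grey, left only) and peaks with both (blue), all without neuron p300. The red points climb to 82.7% with CHD4 rank and stay between 67.5% and 75.6% over the p300 quartiles, where the blue ones climb to 89.8%.

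The strength of p300 did not order the sites in the same way. By quartile of the p300 list, weakest first, CHD4 was listed in neurons at 67.8%, 69.1%, 75.6% and 67.5% of the sites, while peaks with p300 and H3K4me3 went through 59.9%, 72%, 89.7% and 89.8%. The split that follows was chosen after seeing the plot of CHD4 rank against p300 rank. Most sites had similar or higher CHD4 ranks than p300 ranks, but 71 had a p300 percentile more than 20 points above the CHD4 percentile. Of those 71, CHD4 was listed in neurons at 17 (23.9%, 14.6 to 35.5), against 337 of the 479 sites within 20 points (70.4%) and 342 of the 442 with CHD4 more than 20 points higher (77.4%).

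The 71 sites also had low CHD4 ranks, with a median percentile of 26.4, and since the split was drawn from a plot that showed the outcome, its values are a description. Without the unplaced contigs and the chromosome 6 stretch described below, CHD4 was listed in neurons at 17 of 63 such sites (27%, 16.6 to 39.7). Within the second quartile of the CHD4 list it was then 8 of 25 (32%, 14.9 to 53.5), against 90 of 147 other sites (61.2%, 52.8 to 69.1), and the intervals overlap. Within the third quartile it was 1 of 7 (0.361 to 57.9), against 293 of 389 (75.3%), and within the weakest 8 of 31 (25.8%), against 19 of 40 (47.5%). Peaks with p300 and H3K4me3 had 59.5% in the 116 with the same imbalance, 77.3% within 20 points and 82.8% with CHD4 higher. Within CHD4 quartiles they had 47.4% with the imbalance, against 35.5% of others, in the weakest and 67.4% against 68% in the second. The site with the widest gap lay in Tmc6 (a transmembrane channel-like gene) at CHD4 percentile 0.701 and p300 percentile 80, under a p300 peak of 14600 bp. The site at Sfi1, a gene for a centrosome protein, had CHD4 percentile 55.5 and p300 percentile 99.6, and the one near Fasn, for fatty acid synthase, 57.6 and 99.4 under a p300 peak of 27800 bp. None of these 3 had CHD4 in neurons. In some of them the CHD4 peak is a small part of a broad p300 region, so the 2 ranks do not measure equal lengths.

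**Figure D2:**
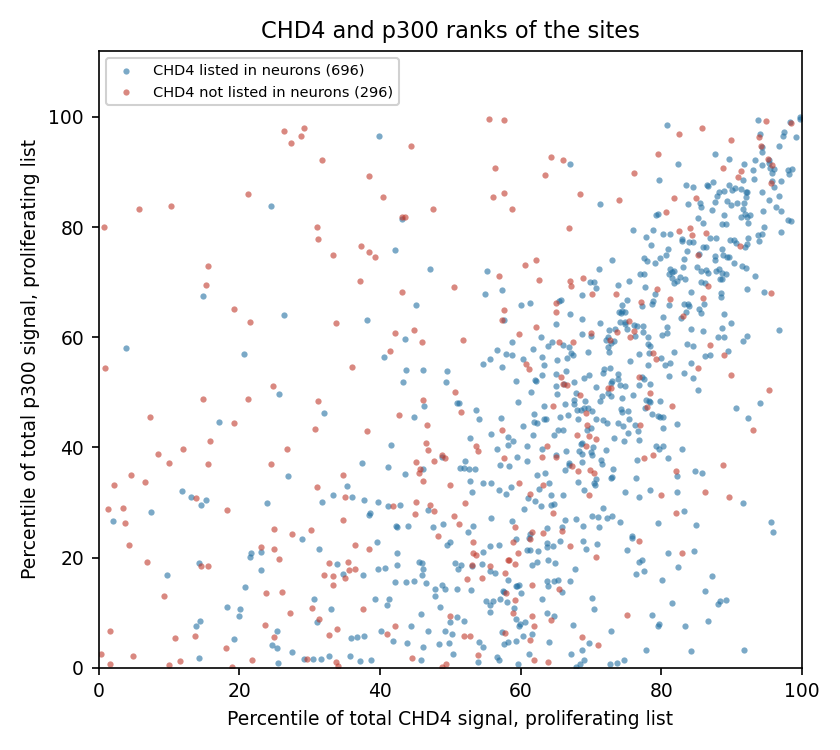
Each point is one of the 992 sites, placed by the percentile of its total CHD4 signal (x axis) and of its p300 signal (y axis) in the proliferating lists; red points (296) have no CHD4 peak in neurons and blue points (696) have one. The upper left, where p300 ranks far above CHD4, is mostly red: 17 of the 71 sites with a gap over 20 points are blue.

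Where CHD4 was listed in both states, the neuron peak was mostly the wider one. It had a median width of 5100 bp in neurons, against 3700 bp for the same sites in proliferating cells, and was wider in neurons at 543 of 696 (78%, 74.8 to 81). The ratio of neuron to proliferating width had a median of 1.32, against 1.49 at the sites keeping p300 and 1.4 at all CHD4 peaks listed in both states, so the widening was common to the lists. The neuron peak spanned the whole proliferating one at 413 sites (59.3%). Its highest point lay at the identical position at 279 sites (40.1%) and within 500 bp at 585 (84.1%), on coordinates that run in steps of 50 bp. The retained peaks were mid-ranked: their median percentile in the neuron CHD4 list was 56.5, against 89.3 for peaks at sites that kept p300 and 42.7 for those with p300 and H3K4me3.

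The 696 sites were covered by 687 distinct neuron peaks, because a few neuron peaks ran over several sites. The one over 3 sites lay at Nfix, a nuclear factor I gene, spanned 30050 bp on chromosome 8 (84716751 to 84746800, mm10) and stood at percentile 97.6 in neurons. At Flrt1, which codes for a transmembrane protein of axon guidance and cell adhesion, a neuron peak of 38200 bp at percentile 99.9 lay over 2 sites of 5250 bp and 15100 bp. Casz1, a zinc finger factor gene, had a neuron peak of 21400 bp over 2 sites. At Nfix and Flrt1 CHD4 was listed over longer stretches in neurons while p300 was not listed over the same sites.

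**Figure D3:**
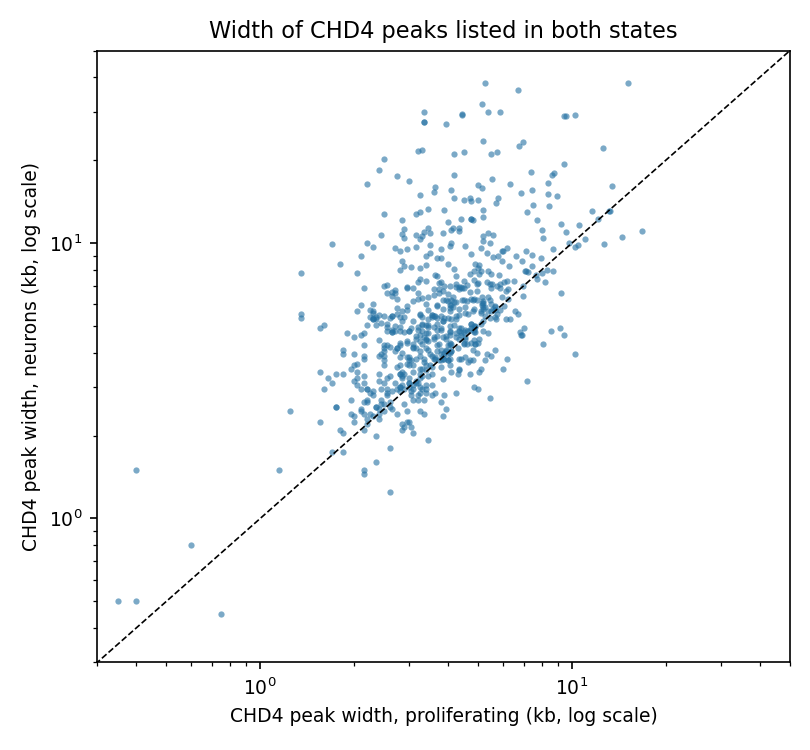
Width of the CHD4 peak in neurons (y axis, kb, log scale) against proliferating cells (x axis, kb, log scale) for the 696 sites listed in both states, with the dashed line at equal width. Of the points, 543 lie above the line.

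The strongest sites with CHD4 in neurons varied in how far the rank held. Inside Ccdc85c, a gene for a coiled-coil protein of cell junctions, CHD4 stood at percentile 99.9 in neurons and 99.7 in proliferating cells. The site 66625 bp from Gadd45g, a gene of growth arrest and DNA damage response, stood at 99.1 in neurons and 99.7 in proliferating cells, and had the highest p300 percentile of all the sites at 99.9. Inside Coro1c, for an actin-binding coronin, the values were 96.4 in neurons and 98.3 in proliferating cells. These 3 were near the top of the CHD4 list in both states.

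Other strong sites ranked lower in neurons. Near Cdk15, a gene of the cyclin-dependent kinase family, CHD4 stood at percentile 40.3 in neurons and 98.6 in proliferating cells. Near Pbx3, a TALE homeodomain factor gene, it stood at 43.8 in neurons and 98.2 in proliferating cells. At Trappc6b, for a subunit of a vesicle-tethering complex, the values were 78 in neurons and 99.2 in proliferating cells. In Wnk2, a kinase gene, they were 81.4 in neurons and 98.5 in proliferating cells, and near Ece1, for endothelin-converting enzyme, 79.3 and 98. In all 8 of these strongest retained sites except Ccdc85c the neuron percentile was the lower one, as the choice of sites at the top of the proliferating list favours.

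The 296 sites without CHD4 in neurons were narrower and lower ranked, with a median width of 2975 bp, against 3700 bp for retained ones, and a median CHD4 percentile of 54.2, against 70.2. Their p300 percentiles had medians of 40 and 46.1 in the same order. They were seldom next to a neuron CHD4 peak: the nearest one lay at a median of 78300 bp over the 279 with one on their chromosome or contig. Strong sites were among them. After a site on an unplaced contig at percentile 98.4, the strongest were 3 beside Hrh1 at 95.8, 95.6 and 95.6, one in Foxn4, a forkhead factor gene of retinal and spinal interneuron development, at 95.3, and one in Mrps28, a mitochondrial ribosome gene, at 95.2. The site in Flg2, a filaggrin family gene of the skin barrier, stood at 94.9 for CHD4 and 99.3 for p300, and the one near the predicted gene Gm40035 at 94.2.

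The longest run of sites lay in a single stretch of chromosome 6, which was noticed after the values were seen, and none of its sites had CHD4 in neurons. Between Hrh1, a histamine receptor gene, and Atg7, a gene of autophagosome formation, from 114496051 to 114630750 (mm10, 134700 bp), the neuron lists held 0 peaks of CHD4, 0 of p300 and 0 of H3K4me3, while the proliferating lists held 17 of CHD4, 15 of p300 and 0 of H3K4me3. Proliferating CHD4 covered 51.1% of the stretch and p300 48.4%. Of the 992 sites 14 lay there, at CHD4 percentiles of 5.67 to 95.8 with a median of 71.7 and p300 percentiles of 36.5 to 97.9 with a median of 83.3. The nearest neuron CHD4 peaks lay 65800 bp before it and 241400 bp after it. No other run of sites was as long; with gaps of up to 15 kb between neighbours, the next longest held 4. The stretch held 7 of the 58 top-quartile sites without CHD4 in neurons, and without it the retained share was 71.2% of all sites and 84.5% of the top quartile. Read depth was not used, so whether the libraries differed in copy number over this stretch was not tested.

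**Figure D4:**
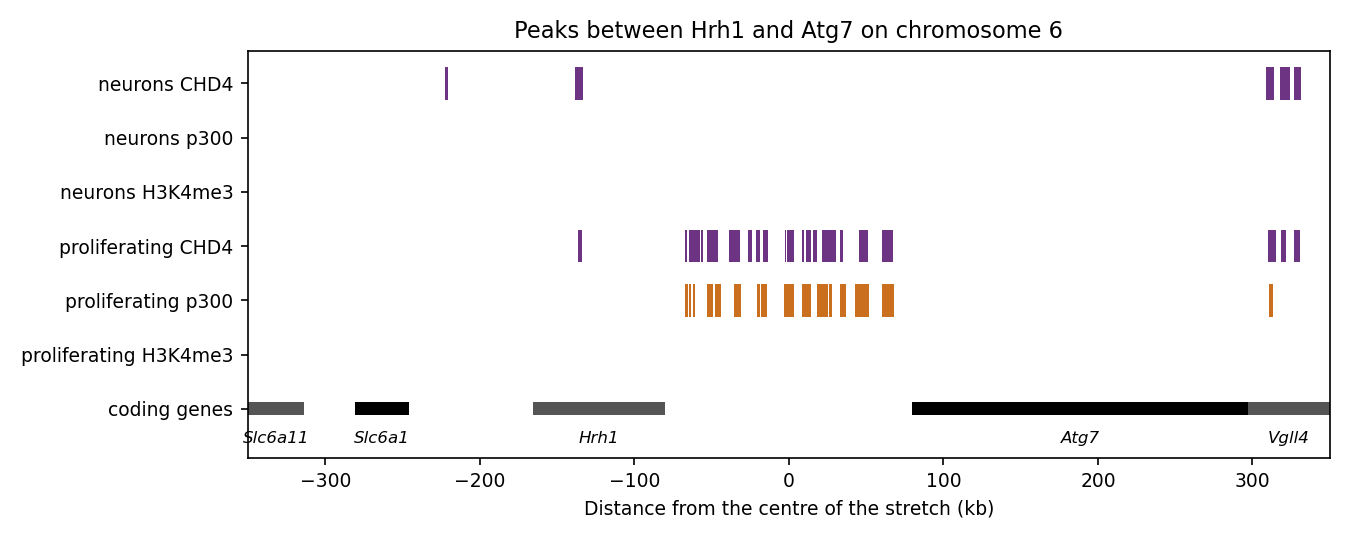
Peaks in each list around the stretch between Hrh1 and Atg7 on chromosome 6, by distance in kb from its centre, with neurons in the upper rows, proliferating cells below them and protein-coding genes in the lowest row (black and grey only to tell neighbours apart). The 17 CHD4 and 15 p300 peaks of proliferating cells in the middle have no neuron peak under any of the 3 antibodies.

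In other runs of at least 3 sites CHD4 was mostly listed again, as it was at 70.2% of all 992 sites. All 4 sites of the run at Nfix had it, as did all 3 at each of Plxna2 (a semaphorin co-receptor), Socs3 (a feedback inhibitor of cytokine signaling), Mtss1 (a membrane and actin regulator), Celsr1 (an atypical cadherin of planar cell polarity) and the histone genes H1f2, H3c3 and H3c2. It was listed at 2 of 3 at Pde8b, at Zzef1 and Atp2a3, and at Mrps23 and Ccdc182. The run at Paqr6 and the osteocalcin genes Bglap2 and Bglap had 0 of 3, at a median percentile of 46.7. Sites of a run can share a neuron peak: the 4 at Nfix lay under 2 neuron CHD4 peaks, as did the 3 at Socs3 and the 3 at Mtss1. Of the 973 placed sites 155 (15.9%) lay in runs of 2 or more, against 14.9% of the sites keeping p300 and 10.8% of peaks with neither mark.

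Most of the sites lay away from gene ends, as the missing H3K4me3 would favour, but 135 (13.6%, 11.5 to 15.9) were within 1 kb of an annotated end of a protein-coding gene, against 42% of all proliferating CHD4 peaks. Another 384 (38.7%) lay in gene bodies and 473 (47.7%) outside genes. The sites keeping p300 were located much alike, with 10.4% at gene ends, 44.3% in bodies and 45.3% outside. So were the peaks with neither mark, with 13.8%, 42.4% and 43.8% in the same order. With the strand known, 31 of the 135 lay at a start only, 61 at the far end only, 20 at both and 23 had no strand to read. The far end was the more common, which the rule favours, since it left out peaks with the promoter mark H3K4me3. This split was not made for other CHD4 peaks. The median distance to the nearest gene end was 22374 bp, against 23006 bp at sites keeping p300 and 21330 bp at peaks with neither mark. To the nearest gene, for sites outside genes, it was 29431 bp. CHD4 was listed in neurons at 71.1% of sites at gene ends, 76.3% of those in bodies (71.7 to 80.5) and 64.9% of those outside genes (60.4 to 69.2). The sites outside genes included the 19 on unplaced contigs and the 14 of the chromosome 6 stretch. Without both, 69.5% of 440 had CHD4 in neurons (65 to 73.8), an interval that overlaps that of bodies.

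The histone genes made up a visible part of the gene-end sites. In all 11 sites lay at replication-dependent histone genes, all on chromosome 13, at CHD4 percentiles of 57.5 to 97.1 with a median of 86.7. CHD4 was listed in neurons at 8 of the 11, and not at the sites at H1f3, at H2bc6 and H4c4, and at H4c3. The nearest proliferating H3K4me3 peak was 2350 bp away at the least and 11550 bp at the median. These genes are transcribed in S phase and give messages without poly(A) tails.

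The sites were of ordinary width, and p300 sat on CHD4 closely. Their median width was 3450 bp (lowest 250, highest 16800), against 4300 bp at sites keeping p300, 3150 bp at peaks with neither mark and 3400 bp at all CHD4 peaks. The sites keeping p300 ranked higher, at a median percentile of 86.5 for CHD4, against 66.2 here, and of 75.9 for p300, against 44.8 here. p300 covered a median of 86.4% of a site, against 86.2% where p300 was kept. The highest CHD4 and p300 points were at an identical position in 427 sites (43%) and within 500 bp in 904 (91.1%). Sites losing and keeping p300 thus differed little in how p300 lay on CHD4, and differed in rank and width.

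The widest sites had varied fates. The widest, 16800 bp at Adamtsl4 (a secreted ADAMTS-like protein gene), had a CHD4 peak of 11050 bp at percentile 12.4 in neurons, against percentile 93.8 in proliferating cells, where its p300 stood at 99.5. The next were 15100 bp in Flrt1, 14500 bp near Polg (mitochondrial DNA polymerase), 13400 bp at Macroh2a1 (the histone variant macroH2A1) and 13250 bp in Cuedc1. CHD4 was listed in neurons at all 5, at percentiles of 99.9 in Flrt1, 81 near Polg, 85 at Macroh2a1 and 89.8 in Cuedc1.

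Neuron H3K4me3 was rare at the sites: 4 of 992 (0.403%, 0.11 to 1.03), against 0.598% of all 2845 CHD4 peaks without proliferating H3K4me3. The 4 lay at Snx32, a sorting nexin gene, Tgif2, a homeodomain repressor gene, Adamtsl4 and Foxn4. CHD4 was listed in neurons at the Tgif2 site, where it stood at percentile 97.2 over 17500 bp, and at the Adamtsl4 site, but not at the other 2. The sites thus did not turn into H3K4me3-marked promoters in neurons beyond the general rate.

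The 5 sites with neuron p300 within 1 kb were those at Foxo6, Ptma, Echdc3, Dnajb12 and Gse1 named above. Since nearly all neuron p300 peaks overlap neuron CHD4, and CHD4 at sites keeping p300 ranks high in neurons, strong CHD4 beside them is close to fixed by the lists. At Foxo6, a forkhead factor gene, CHD4 stood at percentile 99.2 in neurons over 23500 bp, against 77 over 5200 bp in proliferating cells. In Gse1, a coiled-coil protein gene, the site had percentile 99.6 in neurons, against 57.1 in proliferating cells, near Dnajb12, a chaperone gene, 99.1 against 96.1, and near Echdc3 90.4 against 74.2. The site at Ptma (prothymosin alpha) had no CHD4 in neurons and stood at percentile 56.9 in proliferating cells. At this range a moved peak edge and a lost p300 call cannot be told apart. Wider out, 206 of 973 sites (21.2%) had neuron p300 within 50 kb, against 18.1% of peaks with neither mark.

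The genes around the sites were read within 50 kb of each gene's span. A site lay that near to 1656 of the 21883 protein-coding genes (7.57%), and a site keeping p300 near 776 (3.55%). Of the 1656 genes, 196 (11.8%) had a site of both kinds, and 83.6% had a single site from the 992. Genes with the most were Atg7 with 5 (CHD4 in neurons at 1), the iron regulator Hfe inside the histone gene cluster with 5 (4), Gse1 with 5 (4, beside 12 sites that kept p300), Mrps23 with 4 (3), Hrh1 with 4 (0), and the neighbours Trmt1, Lyl1 and Nfix with the same 4 (4). Genes under the sites kept H3K4me3 about as often as others. Of 383 genes that hold a site or are nearest to one and carried H3K4me3 at an end in proliferating cells, 290 (75.7%, 71.1 to 79.9) also carried it in neurons, against 78.1% of all 8221 genes with that mark. Where all the gene's sites had CHD4 in neurons the share was 78.3% (72.8 to 83.1) of 267 genes, and where none had it 65.6% (55.2 to 75) of 96.

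Lists of genes were then read against the 7.57% of all genes with a site; long genes have more room for one, and no list is claimed to stand apart. A site within 50 kb of several genes counts for each of them, so genes and lists below can share a site. Markers of the cells themselves, read from H3K4me3 at a gene end, were present for 2 of 7 otic progenitor genes in neurons and 4 of 7 in proliferating cells, and for 3 of 6 neuronal genes in neurons and 2 of 6 in proliferating cells; mesenchymal and liver markers were at 0 in both, Myo6 was the marked gene of 4 for hair cells in both, and for blood and endothelium Cd68 was marked in proliferating cells only.

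Genes of the FGF pathway, the mitogenic signal in the progenitor medium, had a site at 5 of 23 (21.7%) and a site keeping p300 at 0 of 23. The receptor gene Fgfr1 had 2 sites, both with CHD4 in neurons, and Fgfr3 had 1, with CHD4 in neurons. Etv4 and Etv5, ETS factors induced by FGF signaling, had 2 and 1 sites; CHD4 was listed in neurons at 1 of the 2 at Etv4 and not at the one at Etv5. H3K4me3 was not listed in neurons at Etv4, Etv5 and Fgfr3, and was listed in proliferating cells at all 3. At Fgfr1 and Ier2 it was listed in both states. Over the whole FGF list, with or without a site, it was listed at 17 of 23 genes in proliferating cells and 9 in neurons. The last of the 5 was Ier2, an immediate early gene, with 1 site at percentile 93.9, which is also 1 of the 4 sites counted at Nfix. Etv4 and Etv5 were also 2 of the 3 otic progenitor factors with a site, out of 29, and the third was Tfap2a.

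Genes of the Wnt pathway had a site at 6 of 28 and a site keeping p300 at 1. CHD4 was listed in neurons at all 7 sites near the 6 genes, against 70.2% of all 992 sites. The genes were the ligands Wnt7b (percentile 93.8) and Wnt7a (29.2), the nuclear factor Tcf7l1 (88.3), and the feedback inhibitors Nkd1 (90.1), Axin2 (65.9) and Znrf3, which had 2 sites and a highest percentile of 19.3. Notch pathway genes had a site at 4 of 23: the receptor Notch1, the coactivator Maml3, the glycosyltransferase Rfng and the target Hey1, and 4 of 23 had a site keeping p300. CHD4 was listed in neurons at the Notch1 site and at 1 of the 2 at Maml3, and not at those of Rfng and Hey1. In the Id and BMP list it was 2 of 22, Id3 and Bmp7, both without CHD4 in neurons.

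Factors of the NFI and Sox families and related progenitor factors had a site at 7 of 29 and a site keeping p300 at 6. Nfix had 4 sites and Nfia 3, all with CHD4 in neurons. Sox8 had 2 sites with a highest percentile of 95.3, Sox21 1 at 94.4, Sox1 1 at 73.8 and the Krüppel-like factor gene Klf13 1 at 78.1, all with CHD4 in neurons, and Sox5 had 1 without it. Thus 12 of the 13 sites counted at these genes had CHD4 in neurons, against 70.2% of all 992 sites. The sites are few and not separate, as 3 of those at Nfix lay under 1 neuron peak. Hippo pathway genes had a site at 3 of 18 (Vgll4, Nf2 and Tead3), and AP-1 and immediate early genes at 3 of 20 (Ier2, Klf2 and Fosl1). CHD4 was listed in neurons at the sites of Vgll4, Ier2 and Klf2, and not at those of Nf2, Tead3 and Fosl1.

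Cell cycle genes had a site at 7 of 30 and a site keeping p300 at 3. Mybl2, a factor of G2/M genes, had 3 sites, and the replication licensing gene Cdc6 had 2 with a highest percentile of 94.5. Top2a, for topoisomerase II, had 2, 1 of them shared with Cdc6. Mcm2, for a subunit of the replicative helicase, had 1 at percentile 95.4, and E2f1, Ccne1 and Cdk6 had 1 each. CHD4 was listed in neurons at all of these single sites except that of Cdk6. At the genes with more sites it was listed at 2 of 3 for Mybl2, 2 of 2 for Cdc6 and 1 of 2 for Top2a. The cell cycle exit list had 1 of 16, the CDK inhibitor gene Cdkn1a. Of 15 NuRD genes 3 had a site: Chd4 itself with 2, Gatad2a and Mta2, all with CHD4 in neurons.

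Genes of axon guidance, which the study's title names, were mixed. Semaphorin, plexin and neuropilin genes had a site at 4 of 31 and a site keeping p300 at 4: the receptors Plxna2, with 3 sites, and Nrp1, with 2, had CHD4 in neurons at all 5, and the ligands Sema6c and Sema4c had 1 each without it. Slit, Robo and netrin genes had a site at 5 of 24. Srgap3, a GTPase regulator downstream of Robo, had 3 sites with CHD4 in neurons at 2, Ntn4 had 2 with 0, Srgap1 and Slit1 had 1 each with it and Ntn1 had 1 without it. H3K4me3 at the netrin genes Ntn4 and Ntn1 was not listed in neurons and was listed in proliferating cells. Over the whole Slit, Robo and netrin list it was listed at 9 of 24 genes in proliferating cells and 6 in neurons. Eph receptors and ephrins had a site at 0 of 22.

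Neuronal lists had a site at 1 of 28 neuronal transcription factors (Nhlh1, without CHD4 in neurons), 2 of 30 cytoskeleton and axon genes (Rtn1 and Ank2) and 2 of 30 synapse and channel genes (Scn8a and Hcn2). These shares, 3.57%, 6.67% and 6.67%, have intervals that hold the 7.57% of all genes. Lists for other cell types had a site at 4 of 20 hair cell genes (Cdh23, Espn, Rbm24 and Calb2), 1 of 16 mesenchymal genes (Pdgfra), 1 of 14 blood and endothelial genes (Tek) and 0 of 15 liver genes, and cell adhesion and matrix genes at 1 of 32 (Sdc4). The hair cell share (20%) was as high as that of several progenitor lists, so a site within 50 kb does not by itself mark genes of the progenitor state.

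**Figure D5:**
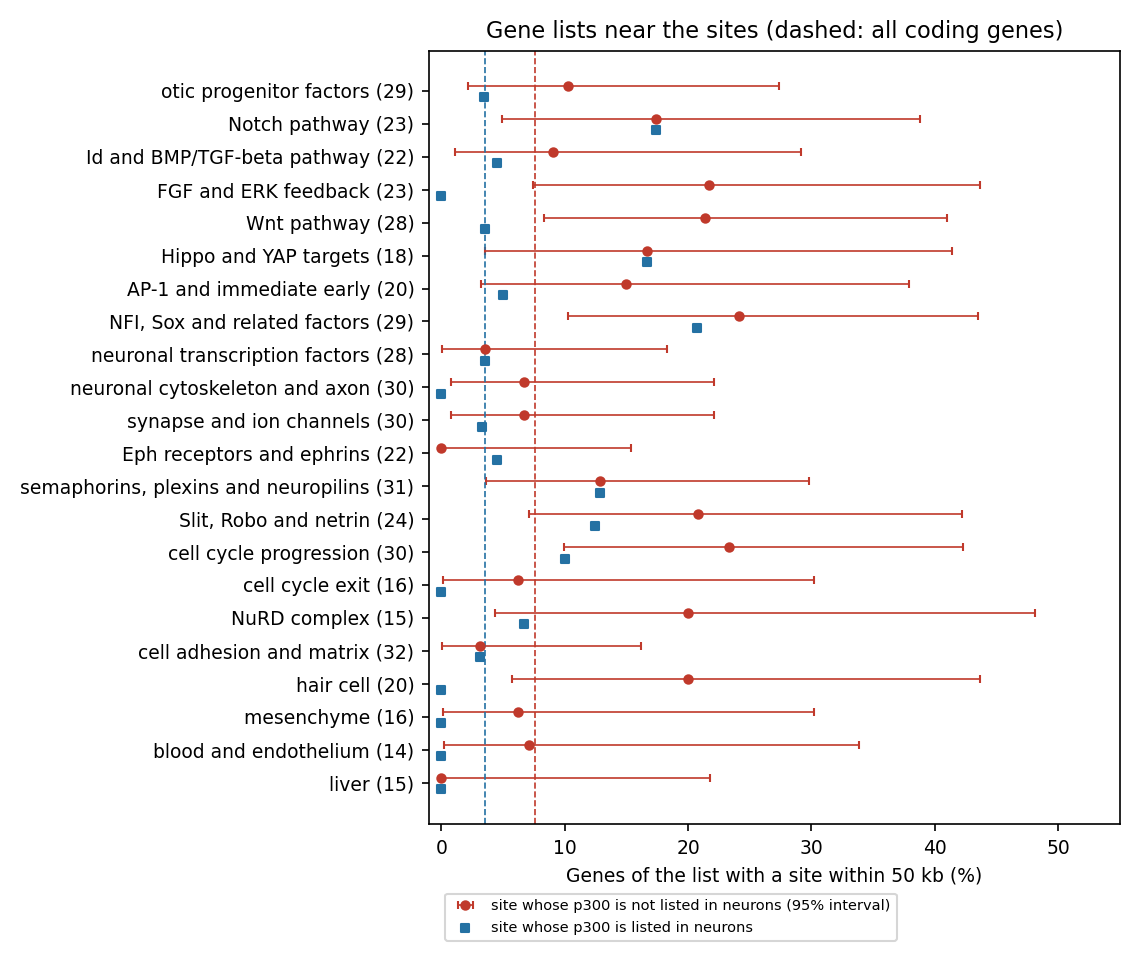
Percent of genes in each list with one of the 992 sites within 50 kb (red, with exact 95% intervals for counting error) and with a site keeping p300 (blue squares); the number of genes is in brackets and the dashed lines mark all protein-coding genes (7.57% red, 3.55% blue). The intervals of the Wnt, NFI and Sox, and cell cycle lists start above the red line and the other intervals reach it, and the FGF list has a red share of 21.7% with no blue site.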

How the data were processed

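CUT&Tag for CHD4, p300, H3K4me3 and IgG was done in 8 libraries, 1 for each antibody and state; the 2 with IgG were not analysed here. Bowtie2, deepTools and SEACR are named, with the build mm10 but no version or role, in the submitters' processing notes; no source used here gives thresholds, the use of IgG or whether a list pools libraries. The 6 deposited peak lists hold the position and the total and highest signal of each peak, as the authors made them. Signal was used only as a percentile of total signal within a list, which favours wide peaks. Read depth is unknown, so the precision of a call is too.

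Peaks overlapped when they shared 1 bp. Coordinates are counted from 1, in steps of 50 bp. Python 3.11.15, pandas 2.3.3 and SciPy 1.17.1 were used, and the overlap code was tested on simulated data. Shares carry exact Clopper-Pearson 95% intervals and differences Newcombe intervals. No p-value is given, because each group is 1 library. Genes and promoter sequences came from RefSeq tables of GRCm38.p6, the assembly of mm10; on chromosomes 1 to 19, X and Y they hold 21883 protein-coding genes, and promoters matched 17491 of them. Peak sequences are not shown, as no genome was used here, and no chromosome 18 promoter was used.

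The members and the 23 gene lists were chosen with earlier results of these data known; 1 of the lists is not reported here. Named genes are those of the 8 strongest sites with and without neuron CHD4, the 5 widest, the 8 genes with most sites, sites with neuron H3K4me3, the 6 with highest p300, up to 4 per list by number of sites, and the 5 with neuron p300 within 1 kb. Edge sites, runs, histone genes, promoter windows, wide neuron peaks, sites with unbalanced ranks and further list members were chosen after their values were seen. Alternatives were a stricter signal cut, a larger overlap, trimmed p300 lists, other gene windows and, added after seeing the data, placed chromosomes only and no neuron p300 within 5 kb.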

Additional observations from a re-analysis of the deposited data

How the results depend on the processing

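Of 94 alternative values, 76 stayed within the counting interval of the reported value (or, for counts, within 1.5 times it) and 18 moved further. A change of sign was possible only for the difference from sites keeping p300, and it did not occur. The share of CHD4 at sites keeping p300 is nearly fixed by the lists, so the unchanged sign says little. With the stronger 50% of each list the rule gave 601 sites, CHD4 in neurons at 65.1%, a difference from sites keeping p300 of -34.3 points, 18.5% at gene ends, 35.6% in gene bodies, a median width of 4200 bp, median percentiles of 83.7 for CHD4 and 72.4 for p300, and 1088 genes within 50 kb. With the proliferating p300 list trimmed to the neuron length the values were 227 sites, 17.6% at gene ends, 4550 bp, percentiles of 86 and 82.1, and 486 genes. Both settings keep strong peaks by construction, so ranks and widths had to go up. With at least 50% of the CHD4 peak covered, the median p300 percentile was 47.5; with a gene window of 2.5 kb, 17.5% lay at gene ends; within 100 kb, 2671 genes had a site. The share with CHD4 in neurons ran from 65.1% to 71.4% over all its alternatives, with the highest value when unplaced contigs were left out, a choice made after seeing the data. No paired analysis was possible because each antibody and state has 1 library. How much of the p300 loss comes from the shorter neuron list was not tested beyond the trimming, and depth, which limits every missing peak, is unknown.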
